A study of Mus musculus with 11 samples.

Results

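The comparison described here asks which changes that a newborn mouse liver makes between birth and day 2 were different when Notch signalling was switched on in its cells. It takes the change from day 0 to day 2 in mutants minus the same change in controls, for every gene. The difference of these changes is called the interaction. All 11 arrays of the series enter it, so its members are 11 of 11 arrays, and 15901 genes with a symbol were tested.

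Both genotypes carried the Rosa26-lsl-NICD allele, in which a stop cassette flanked by loxP sites keeps the intracellular domain of Notch (NICD) silent. Controls were mono transgenic for this allele. Mutants also carried AFP-Cre, in which the alpha-fetoprotein promoter drives Cre recombinase and is active in hepatoblasts and their descendants. The pups were of a hybrid 129 x C57BL/6 background. At birth (P0, day 0) there were 2 controls and 3 mutants, and at day 2 (P2) there were 3 controls and 3 mutants. No group carried AFP-Cre alone, so effects of Cre and of NICD cannot be told apart. Separate pups are known only from the numbered labels, and the p-values measure the spread between these samples.

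Notch is a receptor that is cut after it binds a ligand on a neighbouring cell. Its freed intracellular domain joins the DNA-binding protein RBPJ and turns on genes such as those of the Hes and Hey repressors. In the developing liver this signal directs hepatoblasts near the portal vein towards bile duct cells, while the others become hepatocytes. Around birth the hepatocyte takes over gluconeogenesis, fatty acid oxidation and detoxification, lipid synthesis falls as milk replaces the placental supply, and blood formation begins to leave the liver. In whole liver RNA, fewer cells of a type and less RNA per cell cannot be told apart.

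Between 63.3% and 68.6% of the spots on an array were well above background, and the signal at the 75th percentile was between 607.72 and 1301.55. The number of arrays limits the precision. Mutant P0 replicate 3 stood apart. It lay at least 2-fold above all other arrays for 601 genes and at least 2-fold below them for 472 of 15687, and the other arrays had at most 66 such genes each way. It correlated across genes at 0.954 and 0.952 with the other day 0 mutants, against 0.983 or more for other pairs within a group. Several results that move with it are given with and without it, and the others with all arrays only. By Xist and genes of the Y chromosome, both day 0 controls (2 pups) were male, all 3 day 0 mutants were female, and each day 2 group held 1 male and 2 females, so pup sex and genotype cannot be told apart at day 0. Each group had the same position on every slide, so position and group cannot be told apart either, and slide 3 held no day 0 control.

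Of the genes that changed at least 2-fold in normal liver past the threshold, 580 fell and 405 rose. The mutant change had the opposite sign, at any size, for 91 of the 580 and 11 of the 405. It passed in that direction for 17 of the 580, where 9.35% of all genes rose in mutants. Of the 405 it did so for 0, where 11.2% of all genes fell. A smaller mutant change is partly what choosing genes by the control change gives, and these counts carry no test. The genes whose change differed between genotypes mostly rose in mutants, and a part of them also fell in controls, among them Tgfb2, Rgma and Krt7. The interaction passed an adjusted p of 0.05 for 43 genes (limma, Benjamini-Hochberg), which is 0.27% of those tested. It was above 0 for 37 genes (0.233%) and below 0 for 6 (0.0377%). At an unadjusted p of 0.05 there were 2327 genes (14.6%), with 7.97% of all genes above 0 and 6.66% below. Without mutant P0 replicate 3 the interaction passed for 275 genes (1.73%), 221 above 0 (1.39%) and 54 below (0.34%), and all 43 were among them.

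**Figure D1:**
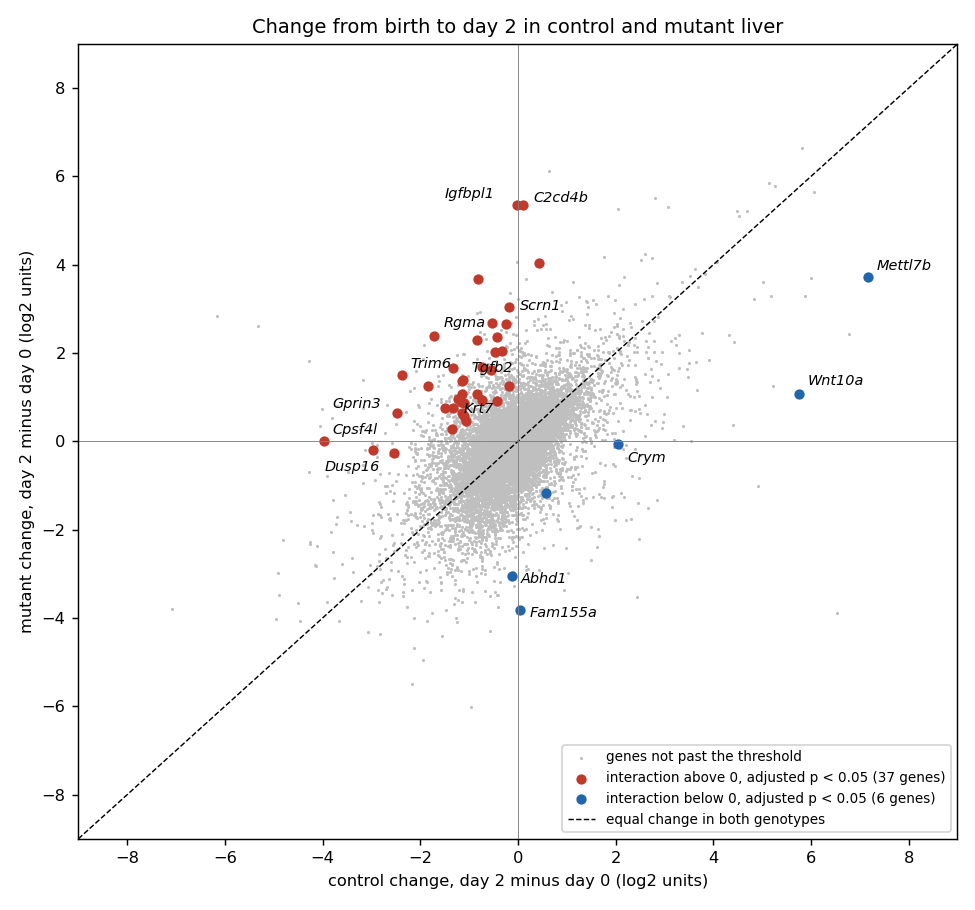
Change from day 0 to day 2 in controls (x axis) and mutants (y axis), in log2 units, with 1 point per gene tested. The 37 red points lie above the dashed line of equal change, 35 of them at a control change below 0, and the 6 blue points lie below it.

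Among the 37 genes with an interaction above 0, the control change was below 0 in 35 and the mutant change was above 0 in 34. The control fall passed on its own for 23, where 5.72% of all genes fell, the mutant rise for 32, where 9.35% rose, and both for 18. At day 2 the mutants were higher than controls, past the threshold, for 33 of the 37, where 9.62% of all genes tested were. At day 0 they were higher for 5 (1.6% of all genes) and lower for 5 (0.704%), and 27 did not pass at birth. The 3 mutants lay above all 3 controls of day 2 for 33 of the 37, as they did for 20.7% of all genes. Day 2 and interaction values share arrays, so these counts describe the 37 and are no separate support. Slides 1 and 2 each hold all 4 groups, and on each the sign was that of the pooled value for 43 of 43 genes. The 43 were chosen on these same arrays, which favours that sign, so this is no separate support either.

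For the description, a gene whose control change was at least 2-fold was called reversed where the mutant change was at least 2-fold the other way, blocked where it was under 2-fold, reduced where it was smaller but still 2-fold, and exaggerated where it was larger. A gene with a control change under 2-fold was called acquired where the mutant change was at least 2-fold, and divergent where neither was. By these definitions 14 of the 43 were blocked, 7 reversed, 2 reduced, 18 acquired, 2 divergent and 0 exaggerated. Without mutant P0 replicate 3, the 275 genes comprised 90 blocked, 18 reversed, 8 reduced, 88 acquired, 68 divergent and 3 exaggerated. The classes say where a value lay and carry no test of their own, and those of the 10 genes with a group in which no array was above background rest on unmeasured levels. Whatever the test, 1026 genes (6.45%) had a normal change of at least 2-fold with a mutant change that was under 2-fold or of the other sign.

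Levels are given in log2 units above or below the 75th percentile of the same array, so that a difference of 1 is 2-fold. Probe positions are on mouse build mm8.

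Of the 43 genes, 7 were reversed, and all 7 fell in controls and rose in mutants. Tgfb2 encodes transforming growth factor beta 2, a secreted regulator of matrix and epithelial growth (probe on chromosome 1, 188324443 to 188324502). It read -1.37 and -0.91 in the day 0 controls and -2.22, -2.33 and -2.31 in the day 2 controls. In mutants it read -1.47, -1.84 and -1.80 at day 0 and -0.28, -0.33 and -0.37 at day 2. Every day 2 mutant was thus above every other array, while at birth all 3 mutants lay below both controls. The gene fell 2.21-fold in controls and rose 2.59-fold in mutants, and the interaction was 2.52 ± 0.24 (SE, adjusted p = 0.008), with a 95% interval of 1.99 to 3.05.

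Rgma encodes repulsive guidance molecule A, a membrane co-receptor for bone morphogenetic proteins (chromosome 7, 73293324 to 73293383). It read -1.32 and -1.45, then -2.83, -3.43 and -3.06, in controls, and 0.93, -0.19 and -0.57, then 2.42, 2.76 and 2.18, in mutants. The mutants already lay above the controls at birth, by 2.72-fold with an adjusted p of 0.106, and the gap was 47-fold at day 2 (adjusted p = 2.21e-05). The interaction was 4.11 ± 0.53 (SE, adjusted p = 0.022).

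Adamtsl2 encodes a secreted glycoprotein of the matrix that binds latent TGF-beta binding protein (chromosome 2, 26930494 to 26930553). Controls went from -2.90 and -2.83 to -4.64, -5.02 and -4.43. Mutants went from -3.52, -3.47 and -2.18 to -1.97, -1.82 and -1.60, where the -2.18 is replicate 3. The interaction was 3.10 ± 0.50 (SE, adjusted p = 0.0476), and 3.54 without that replicate (adjusted p = 0.0047).

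Ppl, a plakin that anchors keratin filaments to desmosomes, fell 2.18-fold in controls and rose 2.61-fold in mutants (interaction 2.51 ± 0.39, SE, adjusted p = 0.0406). Trim6, a ubiquitin ligase, differed in shape from the rest. It read -2.69 and -2.56 in day 0 controls but -6.24, -5.55 and -4.88 in day 0 mutants, and both genotypes overlapped at day 2 (-5.44, -5.13 and -4.45 against -4.54, -4.08 and -3.54). Its mutants were 7.61-fold lower at birth (adjusted p = 0.00992), and the day 2 difference did not pass (adjusted p = 0.128). Ager, the receptor for advanced glycation end products, was not above background on any day 2 control. Its day 2 mutants (-3.10, -3.07 and -3.001) read 9.12-fold above those controls, whose own reading is not told apart from background.

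**Figure D2:**
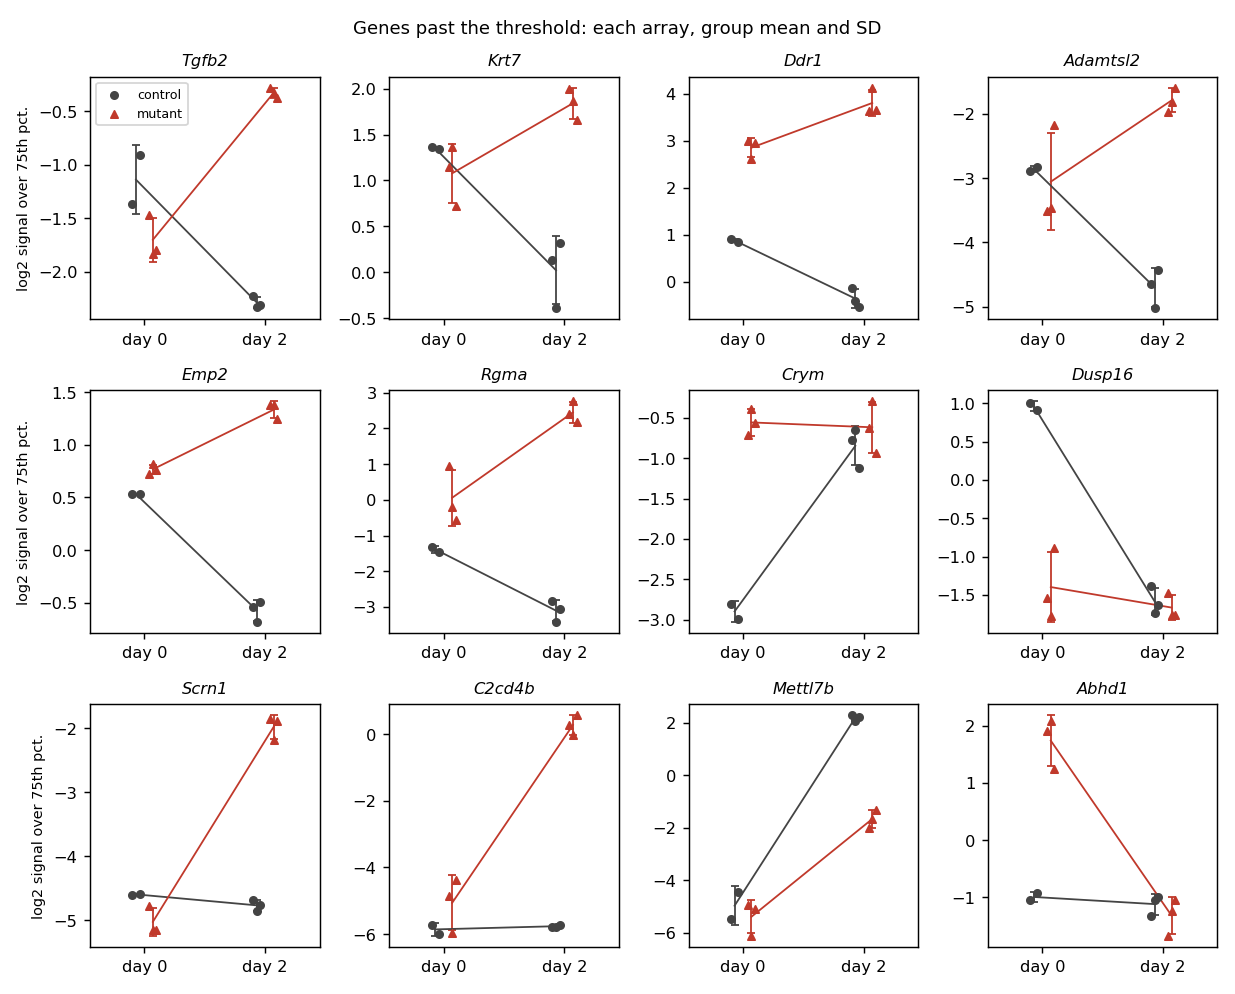
Level of 12 genes past the threshold on each array, as log2 signal over the 75th percentile of the array, at day 0 and day 2, with group mean and SD (controls black circles, mutants red triangles). Tgfb2 and Krt7 start close together and part by day 2, whereas Crym and Dusp16 differ at birth and meet at day 2.

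The 14 blocked genes came in 2 shapes, a division made after the values were seen. In 8 the mutants at birth were nearer the control level of day 0 and stayed there or moved up, and in 6 they were already nearer the control level of day 2. The bile duct keratin Krt7 (chromosome 15, 101255775 to 101255834) was of the first shape. Controls read 1.36 and 1.34 at birth and 0.14, -0.39 and 0.32 at day 2. Mutants read 1.15, 1.36 and 0.73 and then 2.00, 1.87 and 1.66. The genotypes overlapped at birth, and at day 2 all mutants lay above all controls. Krt7 fell 2.51-fold in controls (adjusted p = 0.0134) and rose 1.70-fold in mutants (adjusted p = 0.0398), with an interaction of 2.09 ± 0.33 (SE, adjusted p = 0.0465) and 2.27 on a second probe.

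Ddr1, a collagen receptor tyrosine kinase found in epithelia (chromosome 17, 35289638 to 35289692), was already higher in mutants at birth. It read 0.90 and 0.85 in controls against 2.98, 2.61 and 2.95 in mutants at day 0, and -0.13, -0.41 and -0.54 against 3.62, 4.13 and 3.65 at day 2. The gap widened from 3.93-fold to 17.9-fold, an interaction of 2.19 ± 0.28 (SE, adjusted p = 0.022). Emp2, a membrane protein of the tetraspan family in epithelia, showed little spread within a group. It was 0.53 in both day 0 controls, -0.54, -0.69 and -0.49 in day 2 controls, 0.73, 0.81 and 0.76 in day 0 mutants and 1.38, 1.38 and 1.24 in day 2 mutants. Its interaction of 1.67 ± 0.17 (SE, adjusted p = 0.00855) had the same value without mutant P0 replicate 3.

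Klc3, a kinesin light chain, fell 2.83-fold in controls and rose 1.69-fold in mutants (interaction 2.26 ± 0.27, SE). The actin regulator Carmil1 and the synapse-defective homologue Syde1 fell 2.25-fold and 2.08-fold in controls and rose 1.86-fold and 1.38-fold in mutants. The double-stranded RNA sensor Tlr3 fell 2.16-fold in controls and rose 1.84-fold in mutants. Camk2b, a calcium/calmodulin-dependent kinase subunit, fell 2.56-fold in controls and its mutant change of 0.28 did not pass (adjusted p = 0.179). The interactions of these 4 genes, Carmil1 to Camk2b, lay between 1.51 and 2.07.

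Dusp16, a phosphatase that acts on JNK and p38 kinases (chromosome 6, 134681331 to 134681371), was of the second shape. It read 1.01 and 0.91 in day 0 controls and -1.54, -1.77 and -0.89 in day 0 mutants. At day 2 the controls (-1.38, -1.74 and -1.64) and the mutants (-1.47, -1.77 and -1.76) overlapped. The interaction was 2.28 ± 0.33 (SE, adjusted p = 0.0315), but the other tested probe of Dusp16 gave -1.37, the only one of 17 further probes of the called genes that went the other way. Gprin3 also counted in the second shape, but its genotypes crossed. The mutants lay below both controls at day 0 and above all controls at day 2. Levels of Gprin3 were -1.81 and -1.80, then -4.25, -4.55 and -4.03, in controls. In mutants they were -3.68, -3.80 and -3.79, then -2.66, -3.38 and -3.33, an interaction of 3.10 ± 0.32 (SE, adjusted p = 0.008). Tlr3 and Olfr869 counted in the second shape too. Cpsf4l, related to a polyadenylation factor, lay between both control levels. It fell 15.8-fold in controls from -0.54 and -1.66 to -5.19, -4.96 and -5.09. In mutants it was at -2.43, -2.58 and -3.78 at birth and -2.63, -3.10 and -3.06 at day 2 (interaction 3.98 ± 0.57, SE, adjusted p = 0.0307). The olfactory receptor Olfr869 was above background only in the day 0 controls, at least 7.40-fold over the day 2 controls and at least 7.14-fold over the day 0 mutants.

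Crym was the 1 blocked gene that rose in controls. It encodes mu-crystallin, a cytosolic protein that binds thyroid hormone (chromosome 7, 119977605 to 119977664). Day 0 controls read -2.80 and -2.99 and day 2 controls read -0.78, -0.65 and -1.12. Mutants read -0.72, -0.39 and -0.57 at birth and -0.62, -0.30 and -0.93 at day 2, so the day 0 controls lay below the other 9 arrays. Crym rose 4.14-fold in controls (adjusted p = 0.00198), and the interaction was -2.11 ± 0.30 (SE, adjusted p = 0.0307).

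A further 18 of the 43 had a 2-fold change in mutants with none in controls. C2cd4b, a nuclear calcium-dependent domain protein known from endothelium and pancreatic islets (chromosome 9, 67559922 to 67559981), stayed between -6.00 and -5.72 on all 5 control arrays. It read -4.86, -5.97 and -4.36 in day 0 mutants and 0.29, -0.01 and 0.58 in day 2 mutants. Only 1 array of each control group was above background, so its 40.7-fold rise is measured in mutants, and the interaction of 5.25 ± 0.53 (SE, adjusted p = 0.008) rests on dim control values. Scrn1, a secernin (chromosome 6, 54435537 to 54435596), was measured on every array. Controls lay at -4.60 and -4.59 and then -4.69, -4.86 and -4.75, and mutants at -4.77, -5.14 and -5.16 and then -1.86, -2.19 and -1.88. The difference between genotypes at birth did not pass. Scrn1 rose 8.27-fold in mutants, and its control change of -0.17 did not pass (adjusted p = 0.538). The interaction was 3.22 ± 0.23 (SE, adjusted p = 0.00218).

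Tent5b, a poly(A) polymerase family member, went from -3.55, -3.42 and -3.11 to -1.20, -0.75 and -1.27 in mutants and from -3.78 and -3.47 to -4.34, -4.33 and -4.69 in controls (interaction 3.12 ± 0.30, SE, adjusted p = 0.008). The forkhead transcription factor Foxc1 rose 5.18-fold in mutants, from -4.53, -4.03 and -3.95 to -1.83, -1.47 and -2.09, while controls lay between -5.97 and -4.91. The neuronal endoplasmic reticulum protein Rtn1 rose 4.04-fold (interaction 2.48 ± 0.39, SE), the magnesium transporter relative Nipal2 4.11-fold (2.36 ± 0.28, SE), the membrane skeleton protein Epb41l4a 3.20-fold (2.42 ± 0.32, SE) and the small GTPase Rasl10a 3.09-fold (2.18 ± 0.28, SE). All 4 of these control changes were below 0 and none passed. Kcnn2, a calcium-activated potassium channel, moved towards the controls. It was at -3.86, -4.39 and -3.67 in day 0 mutants against -1.13 and -0.69 in day 0 controls, 8.35-fold lower (adjusted p = 0.00155), and at day 2 it overlapped with them (-1.35, -1.73 and -0.85 against -1.05, -0.98 and -1.43).

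Of the genes with an acquired rise, 6 had a group with no array above background. Their folds are given as bounds, which hold the dim level no lower than the dimmest signal above background. That floor moved the dim level only for Igfbpl1 in day 2 controls (-8.056 to -8.055), for Olfr869 and for Wnt10a in day 0 controls. All other bounds in the text are ratios to the dim reading itself. That reading is not told apart from background, so they are no strict limits. The bounds between day 2 mutants and day 2 controls were at least 92.1-fold for Igfbpl1, a secreted relative of IGF-binding proteins, at least 44.9-fold for the adhesion protein alpha-catenin 2 (Ctnna2), at least 35.5-fold for the leucine-rich repeat protein Lrrn1, at least 28.4-fold for the cadherin Cdh6, at least 20.5-fold for the inhibin subunit Inha and at least 3.61-fold for Plekhs1. Igfbpl1 read -2.30, -0.99 and -1.30 in day 2 mutants and was not above background on any of the other 8 arrays, at least 40.6-fold over day 0 mutants. Cdh6 and Inha were above background in all 3 mutants of each day. A second probe of Igfbpl1 gave an interaction of 5.04 and one of Ctnna2 gave 3.46.

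Pamr1, a secreted regeneration-associated protease-like protein, and Vasn, a membrane protein that binds TGF-beta, parted without a 2-fold change in either genotype. Pamr1 lay at 0.10 and 0.23 and then -0.29, -0.78 and -0.61 in controls, and at 2.05, 1.85 and 2.09 and then 2.85, 2.86 and 3.11 in mutants (interaction 1.67 ± 0.24, SE, adjusted p = 0.0307). Vasn lay at 1.15 and 1.19 and then 0.78, 0.77 and 0.68 in controls, and at 1.61, 1.27 and 1.51 and then 2.38, 2.40 and 2.32 in mutants (1.33 ± 0.19, SE, adjusted p = 0.0307).

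The promoters of these genes were read for the core of the RBPJ recognition site, TGGGAA, on either strand, because NICD acts through RBPJ. RefSeq promoters (build GRCm38.p6) were held for 27 of the 37 genes above 0. In the window from 250 bases before to 50 after the start, 9 of 27 (33.3%) had at least 1 match, against 27.2% of the 12143 tested genes with a promoter. In the 250 bases before the start alone the share was 18.5%, against 24.1%. The motif was thus about as frequent as among all genes, above their share in the longer window and below it in the shorter. A match is a description of letters and not a bound site. The 250 bases before the start are shown for 3 genes with a match, C2cd4b as the largest interaction among genes with an array above background in every group, Adamtsl2 as a reversed gene and Ddr1 as a duct gene that was blocked. They are written 5′ to 3′ on the strand of the gene with the match in capitals. They are C2cd4b at chr9:67759187-67759436 (+ strand, match 125 bases before the start), Adamtsl2 at chr2:27079129-27079378 (+ strand, 66 bases) and 1 of the listed promoters of Ddr1 at chr17:35702045-35702294 (- strand, 47 bases).
C2cd4b: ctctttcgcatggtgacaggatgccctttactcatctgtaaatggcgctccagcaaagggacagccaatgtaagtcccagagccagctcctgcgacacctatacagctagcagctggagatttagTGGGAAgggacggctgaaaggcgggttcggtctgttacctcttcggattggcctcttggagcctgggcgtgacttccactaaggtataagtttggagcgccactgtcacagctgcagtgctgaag
Adamtsl2: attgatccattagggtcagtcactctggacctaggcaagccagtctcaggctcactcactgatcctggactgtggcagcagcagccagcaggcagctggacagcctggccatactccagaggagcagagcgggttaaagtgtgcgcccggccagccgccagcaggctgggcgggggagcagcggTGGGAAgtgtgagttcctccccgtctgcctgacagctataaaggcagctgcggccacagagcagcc
Ddr1: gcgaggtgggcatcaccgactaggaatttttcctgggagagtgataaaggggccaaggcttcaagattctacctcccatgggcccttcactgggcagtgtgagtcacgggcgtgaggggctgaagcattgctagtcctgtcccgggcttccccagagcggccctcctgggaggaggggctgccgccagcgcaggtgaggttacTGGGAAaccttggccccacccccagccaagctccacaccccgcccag

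Of the 43 genes, 6 had an interaction below 0, and 4 of them were lower in mutants at day 2 past the threshold, where 6.55% of all genes were. Mettl7b is a methyltransferase of hepatocyte lipid droplets and endoplasmic reticulum (chromosome 10, 128361560 to 128361619). Among those of the 43 that were above background in both control groups, it had the largest normal rise. Controls went from -5.48 and -4.44 to 2.28, 2.09 and 2.22, a 143-fold rise. Mutants went from -4.94, -6.11 and -5.10 to -1.995, -1.68 and -1.30, a 13.2-fold rise. The genotypes overlapped at birth and were 14.5-fold apart at day 2, and the interaction was -3.44 ± 0.53 (SE, adjusted p = 0.0406). Wnt10a, a secreted Wnt ligand (chromosome 1, 74737266 to 74737325), was above background only in the day 2 controls, at -2.11, -2.78 and -1.71. Its mutant change lies between groups that were both below background, so its place among the reduced genes is not a measured one. In day 2 controls it was at least 51.5-fold over day 0 controls and at least 24.9-fold over day 2 mutants.

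Abhd1, a hydrolase-fold protein, and Fam155a, a subunit of a sodium leak channel, fell in mutants, and their control changes of -0.12 and 0.05 did not pass. Abhd1 read 1.90, 2.08 and 1.23 in day 0 mutants, above all other arrays, and -1.67, -1.24 and -1.04 at day 2, when it overlapped with the controls (-1.33, -1.04 and -0.99). Day 0 controls were at -1.05 and -0.93, so the difference was one of birth, 6.63-fold (adjusted p = 0.00155), and the interaction was -2.93 ± 0.36 (SE, adjusted p = 0.022). Fam155a was above background in the other 3 groups and on no day 2 mutant, at least 9.21-fold below the day 2 controls. Lkaaear1 was above background on 1 of 2 day 0 controls and 1 of 3 day 2 mutants (interaction -1.73 ± 0.27, SE, adjusted p = 0.0426).

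No normal change passed as exaggerated with all arrays. Without mutant P0 replicate 3 there were 3, named after their values were seen. The embryonic globin Hbb-bh1 (chromosome 7, 103715614 to 103715673) read -1.05 and -1.22 in day 0 controls, -2.16, -2.64 and -2.29 in day 2 controls, -1.47, -0.92 and -0.79 in day 0 mutants and -4.15, -5.06 and -4.75 in day 2 mutants. It fell 2.34-fold in controls and 12.1-fold in mutants. The interaction was -2.37 ± 0.40 (SE, adjusted p = 0.0529), and -2.24 without that replicate (adjusted p = 0.0389). The imprinted cell cycle inhibitor Cdkn1c fell 2.25-fold in controls and 6.56-fold in mutants (interaction -1.54, adjusted p = 0.15, and -1.78 without the replicate, adjusted p = 0.0439). The heparan sulfate-editing enzyme Sulf2 had changes of 1.10 in controls and 2.83 in mutants (interaction 1.73, adjusted p = 0.0712, and 1.56, adjusted p = 0.0484).

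Seen from the normal side, 580 genes fell at least 2-fold in controls past the threshold (3.65%) and 405 rose (2.55%). Of the 580 that fell, 260 fell at least 2-fold in mutants, 310 changed by under 2-fold and 10 went at least 2-fold the other way. Of the 405 that rose, 244 rose at least 2-fold in mutants, 159 changed by under 2-fold and 2 went the other way. The median change of the genes that fell was -1.52 in controls and -0.89 in mutants, and that of the genes that rose was 1.51 and 1.15. A smaller median in the second genotype is partly what choosing genes by the first gives, and it carries no test. The mutant change exceeded the control change in size for 106 of the 580 and 94 of the 405. The interaction passed for 20 of the 580 and 3 of the 405, and without mutant P0 replicate 3 for 76 and 19. Of all genes it passed for 0.27%, and for 1.73% without that replicate. The control change is a part of the interaction, so choosing genes by it favours such calls, and these counts carry no test.

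The reverse view gave the same kind of picture. In mutants 1132 genes fell at least 2-fold (7.12%) and 721 rose (4.53%). Of those that fell, 443 fell 2-fold in controls, 687 changed by under 2-fold and 2 went the other way. Of those that rose, 302, 400 and 19 did so. The group of mutants at birth has 3 arrays and that of controls has 2, so the 2 changes were not measured with the same precision. Across all genes the control change and the mutant change correlated with a Pearson r of 0.567 and a Spearman rank correlation of 0.558. Genes are not independent replicates, and the 2 changes share slides but no array.

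Several of the best known changes of the newborn hepatocyte took place in mutants from another starting level. Tat, which degrades tyrosine (chromosome 8, 112888436 to 112888495), read 2.31 and 2.89 and then 5.15, 5.60 and 5.40 in controls, and 0.23, 0.51 and 0.53 and then 3.12, 2.61 and 3.71 in mutants. It rose 6.88-fold in controls and 6.59-fold in mutants and was 4.52-fold lower in mutants at birth and 4.71-fold lower at day 2. The interaction of Tat was -0.06 ± 0.42 (SE, adjusted p = 0.964). Its 95% interval was -0.995 to 0.87, so a difference of up to about 1 log2 unit either way remains possible. The interval does not give the size that the test could detect.

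The drug-metabolizing Cyp3a11 rose 3.89-fold in controls and 7.47-fold in mutants, from 2.81, 2.56 and 1.65 to 5.26, 4.85 and 5.62 in the latter, and its interaction of 0.94 did not pass (adjusted p = 0.372). Cyp4a14, a fatty acid omega-hydroxylase and target of PPAR-alpha, rose 8.43-fold in controls (4.52 and 5.57 to 8.07, 8.28 and 8.01) and 39.5-fold in mutants (2.69, 1.55 and 1.46 to 6.87, 7.34 and 7.40), with an interaction of 2.23 (adjusted p = 0.139). G6pc, the last enzyme of gluconeogenesis, read 4.53, 4.17 and 2.29 in day 0 mutants, the 2.29 being replicate 3. Its interaction was 0.64 with that array and -0.04 without. Cyp2e1 and the bile acid enzyme Cyp7a1 were read at -4.08 and -4.58 on the same array, and their interactions of 2.40 and 1.69 became 0.49 and 0.27 without it. Neither passed. The urea cycle enzyme Cps1 had an interaction of 0.89 (adjusted p = 0.376).

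Among the enzymes of lipid synthesis, the phosphatidate phosphatase Lpin1 fell 17.3-fold in controls, from 4.54 and 4.22 to 0.15, 0.30 and 0.34, and 5.18-fold in mutants, from 2.48, 2.77 and 2.80 to -0.15, 0.26 and 0.82. The mutants started lower and the day 2 levels overlapped, and the interaction was 1.74 ± 0.35 (SE, adjusted p = 0.0775). Scd2, a desaturase of fetal liver, fell 8.92-fold and 3.75-fold. Fasn, the fatty acid synthase, fell 2.70-fold in controls, while its mutant change of -0.33 and its interaction of 1.10 did not pass (adjusted p = 0.367 and 0.25).

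**Figure D3:**
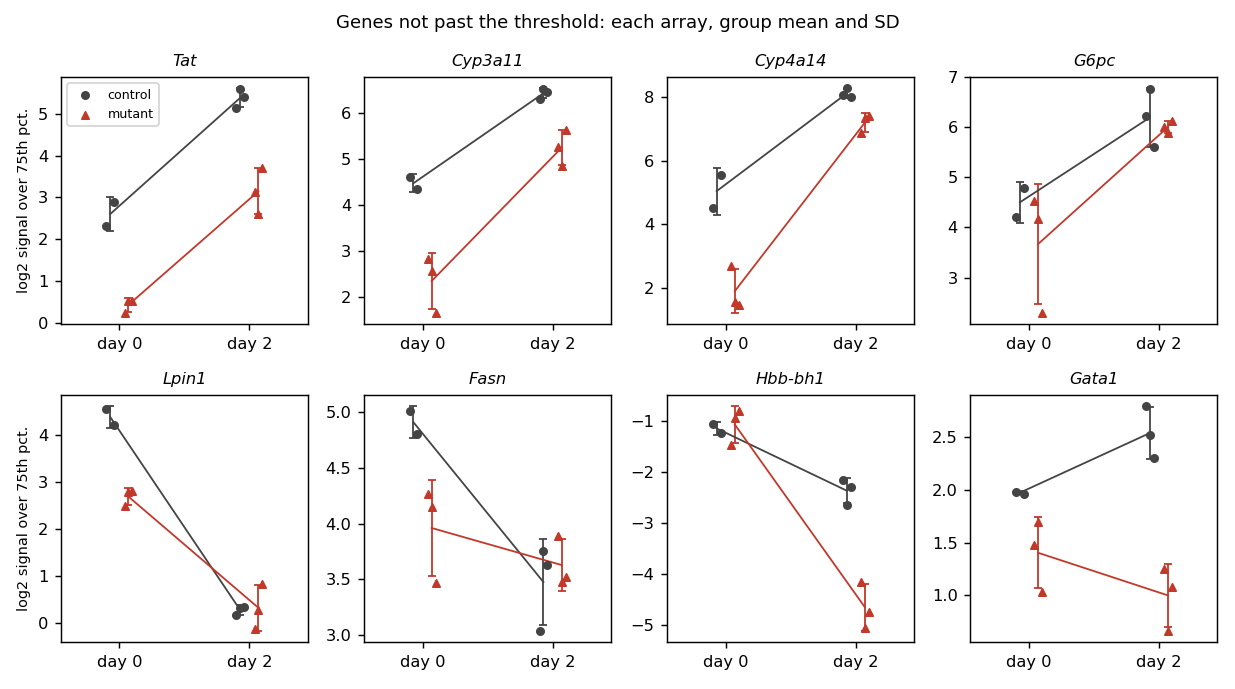
Level of 8 genes that did not pass the interaction test on each array, as log2 signal over the 75th percentile of the array, at day 0 and day 2, with group mean and SD. Tat rises in parallel lines, Cyp4a14 starts lower in mutants and rises more steeply, Lpin1 starts lower and meets the controls at day 2, and Hbb-bh1 falls further in mutants.

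Gene lists were described by their counts and medians beside those of all genes. Over all genes the median was -0.02 for the control change, -0.0042 for the mutant change and -0.04 for the interaction. Of the 15901 genes, 7364 had an interaction above 0 and 8537 below 0. It passed above 0 for 0.233% and below 0 for 0.0377% of all genes. Without mutant P0 replicate 3 these shares were 1.39% and 0.34%. With all arrays the bile duct list had the highest median interaction of the lists drawn, at 1.04, and without mutant P0 replicate 3 it was at 0.88, below the 0.90 of the stellate cell and matrix genes. Of its 36 measured genes the interaction passed above 0 for 3 (Krt7, Ddr1 and Cdh6) and below 0 for none. Cdh6 was not above background on any day 2 control. Without mutant P0 replicate 3 the interaction passed above 0 for 9. At an unadjusted p of 0.05 it was above 0 for 18 and below 0 for 0, where 7.97% and 6.66% of all genes were. It was above 0, at any size, in 28. The median control change was -0.19 and the median mutant change 0.82. In controls 2 of the duct genes rose and 3 fell, where 5.52% and 5.72% of all genes did. In mutants 15 of them rose and 1 fell, where 9.35% and 11.2% of all genes did. Sox9, the duct transcription factor, read -0.79 and -0.94 and then -2.86, -2.49 and -2.83 in controls, and 3.18, 2.32 and 2.22 and then 2.39, 2.31 and 2.60 in mutants. It fell 3.64-fold in controls, its mutant change of -0.14 did not pass (adjusted p = 0.694), and the interaction of 1.72 ± 0.37 (SE) had an adjusted p of 0.101. The adhesion protein Epcam had an interaction of 2.11 (adjusted p = 0.139), Krt19 of 2.29 (0.241, and 0.02 without mutant P0 replicate 3, which read 1.36 against -0.81 and -0.73), and the secreted phosphoprotein Spp1 of 1.10 (0.52).

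Of 25 Notch targets the interaction passed for none (0 of 25), and of 29 parts of the Notch pathway for none either (0 of 29). At an unadjusted p of 0.05 it was above 0 for 4 of each list, where 7.97% of all genes were. Nrarp, a feedback inhibitor of Notch, read -3.16 and -3.38 and then -1.68, -1.42 and -1.77 in controls, and 0.85, 0.61 and -0.03 and then 1.91, 2.68 and 2.03 in mutants. It rose 3.14-fold in controls and 3.31-fold in mutants, so the mutants were 13.4-fold higher at birth and 14.2-fold higher at day 2. The interaction of Nrarp was 0.08 (95% interval -0.82 to 0.98). Hey1 and Heyl had interactions of 1.27 and 2.38 (adjusted p = 0.302 and 0.23), and Hes1 of -0.51 (0.717). Heyl was at -1.44 on mutant P0 replicate 3, below the 0.81 and 0.80 of its group. Without that array the interaction of Heyl was 1.63 (adjusted p = 0.051). Hey1 passed without that array at 1.74 (adjusted p = 0.021), as did the receptor Notch4 at 1.19 (0.032, and 0.11 with all arrays). Notch1, a Notch receptor, had an interaction of 0.43 (adjusted p = 0.826), and whether its probe reads the transgene is not known. The cyclin Ccnd1 had an interaction of 0.39 (0.787).

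Of 56 stellate cell and matrix genes the interaction passed above 0 for 1, Tgfb2, and for 4 without mutant P0 replicate 3, among them the collagen genes Col4a1 and Col4a2 and the proteoglycan Bgn. It was above 0 in 44. Their median control change was -0.52 and their median mutant change -0.05 (0.21 without that replicate). In controls 6 of the 56 fell and in mutants 1 did, where 5.72% and 11.2% of all genes fell. On mutant P0 replicate 3, Col4a1 read 2.81 against 1.74 and 1.40 in the other day 0 mutants. Its interaction was 0.94 with that array and 1.35 without. The summed linear signal of the list ran from 317 to 327 in day 0 controls, 258 to 363 in day 2 controls, 296 to 495 in day 0 mutants and 267 to 338 in day 2 mutants. Among 34 Wnt and Hippo-Yap targets the interaction passed for 1, Wnt10a, and without mutant P0 replicate 3 for 6, 4 of them above 0 and 2 below. Sp5, a Wnt target gene of the Sp family, was not above background in day 0 controls, read -2.72, -3.02 and -2.64 in day 2 controls, -2.76, -2.53 and -5.58 in day 0 mutants and -3.03, -1.80 and -2.27 in day 2 mutants. Its interaction had an adjusted p of 0.158 with all arrays and 0.0059 without mutant P0 replicate 3. Amotl1, an angiomotin that binds Yap, had an interaction of 1.95 (adjusted p = 0.0613), and of 1.68 without that replicate (0.0242).

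Of 43 erythroid genes the interaction was below 0 in 42 and passed for 0. It was below 0 at an unadjusted p of 0.05 for 18, as it was for 6.66% of all genes. The median control change was -0.19 and the median mutant change -0.93, with 1 gene falling in controls and 21 in mutants, where 5.72% and 11.2% of all genes fell. Without mutant P0 replicate 3 the median mutant change was -1.24 and 1 gene passed, the adhesion protein Icam4 at -1.50 (adjusted p = 0.0389). Gata1, the master erythroid transcription factor, read 1.98 and 1.96 and then 2.80, 2.52 and 2.31 in controls, and 1.48, 1.70 and 1.03 and then 1.25, 0.66 and 1.08 in mutants. Its interaction was -0.97 ± 0.33 (SE, adjusted p = 0.236). The 5 measured globins were all below 0 with a median of -1.69, and Hbb-y, the embryonic beta-type chain, had -1.69 as well (adjusted p = 0.228). Of the other globins, Hba-a1 and Hbb-bt were saturated on some arrays. The summed linear signal of the erythroid list ran from 435 to 640 in day 2 mutants and from 811 to 1569 over the other groups, the 811 being mutant P0 replicate 3 and the next lowest array 1078. Megakaryocyte and platelet genes had a median interaction of -0.22, which was 0.35 without that replicate.

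Of 58 cell cycle genes the interaction was below 0 in 50 and passed for 0. At an unadjusted p of 0.05 it was below 0 for 11, where 6.66% of all genes were. In controls 9 of the 58 rose, where 5.52% of all genes did. In mutants 0 rose and 6 fell, where 9.35% and 11.2% of all genes did. The median control change was 0.31 and the median mutant change 0.13, which was -0.078 without mutant P0 replicate 3. Cdc6, which loads the replication helicase, had an interaction of -1.03 (adjusted p = 0.173). Liver erythroblasts also express these genes, and the part of the erythroid values in the cell cycle values was not tested. Of 29 granulocyte genes 12 fell in controls and 9 in mutants, where 5.72% and 11.2% of all genes fell. The granulocyte genes had median changes of -1.22 and -0.997 (-0.60 without mutant P0 replicate 3). Their interaction was above 0 in 21, with a median of 0.27 (0.60 without that replicate), and passed for 0 (at an unadjusted p of 0.05, 1 above and 1 below 0). Without the replicate it passed above 0 for 3, Itgb2l, Pglyrp1 and Retnlg.

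Of 45 plasma proteins of hepatocytes the interaction was below 0 in 36 and passed for 0, with a median of -0.31. At an unadjusted p of 0.05 it was above 0 for 1 and below 0 for 7, where 7.97% and 6.66% of all genes were. In mutants 11 of the 45 fell, and in controls 1 did, where 11.2% and 5.72% of all genes fell. The fetal serum protein Afp, the growth factor Igf2 and the imprinted transcript H19 had interactions of -0.65, -0.55 and -0.76 (adjusted p = 0.262, 0.25 and 0.173). Igf1, the postnatal growth factor, had -1.19 (0.401), and -1.75 without mutant P0 replicate 3 (0.024), which read 0.70 against 2.30 and 2.47. Alb, counted among the 45, was saturated on all 11 arrays and gives no comparison. Fgb, the fibrinogen beta chain and among the 7 below 0, was saturated on every day 0 array and on no day 2 array. Its changes thus start from a capped level. The hepatocyte transcription factors Hnf4a and Cebpa had interactions of -0.24 and -0.26 (adjusted p = 0.831 and 0.697). Serpina6, the corticosteroid-binding globulin, had -1.94 (0.195), and -2.43 without the replicate (0.021). Its level was higher in mutants on both days, 25.3-fold at birth and 6.59-fold at day 2 (adjusted p = 0.0012 and 0.0016). The negative interaction of Serpina6 is thus a larger fall from a higher level.

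Of the metabolic lists, fatty acid oxidation and ketogenesis had medians of 0.90 in controls and 0.80 in mutants, with 20 and 24 of 40 genes rising. Fatty acid and cholesterol synthesis had -0.77 and -0.83, with 14 and 15 of 42 falling. Xenobiotic metabolism had 0.56 and 0.77, with 13 and 15 of 53 rising. Of all genes tested, 5.52% rose in controls and 9.35% in mutants, and 5.72% fell in controls and 11.2% in mutants. At an unadjusted p of 0.05 the interaction was above 0 for 7.97% of all genes and below 0 for 6.66%. The interaction passed for 0 genes of each of the 3 lists (at an unadjusted p of 0.05, 4 above and 2 below 0, 3 above and 0 below, and 5 above and 4 below). Without mutant P0 replicate 3 it passed below 0 for 2 xenobiotic genes, the glucuronosyltransferases Ugt2b36 and Ugt2b5. Gluconeogenesis, glycogen and glycolysis genes had medians of -0.11 in controls and -0.41 in mutants (-0.27 without that replicate), with 4 and 10 of 35 falling. Amino acid breakdown and urea cycle genes had 0.62 and 0.67, the latter 0.35 without it, with 4 and 10 of 45 rising. The interaction passed for 0 genes of these lists too (at an unadjusted p of 0.05, 1 above and 4 below, and 2 above and 2 below). A count of 0 does not show that these genes changed alike. Acute phase genes and stress genes had median interactions of -0.63 and -0.62, which were -0.14 and -0.06 without mutant P0 replicate 3, so these 2 values rest on that array.

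**Figure D4:**
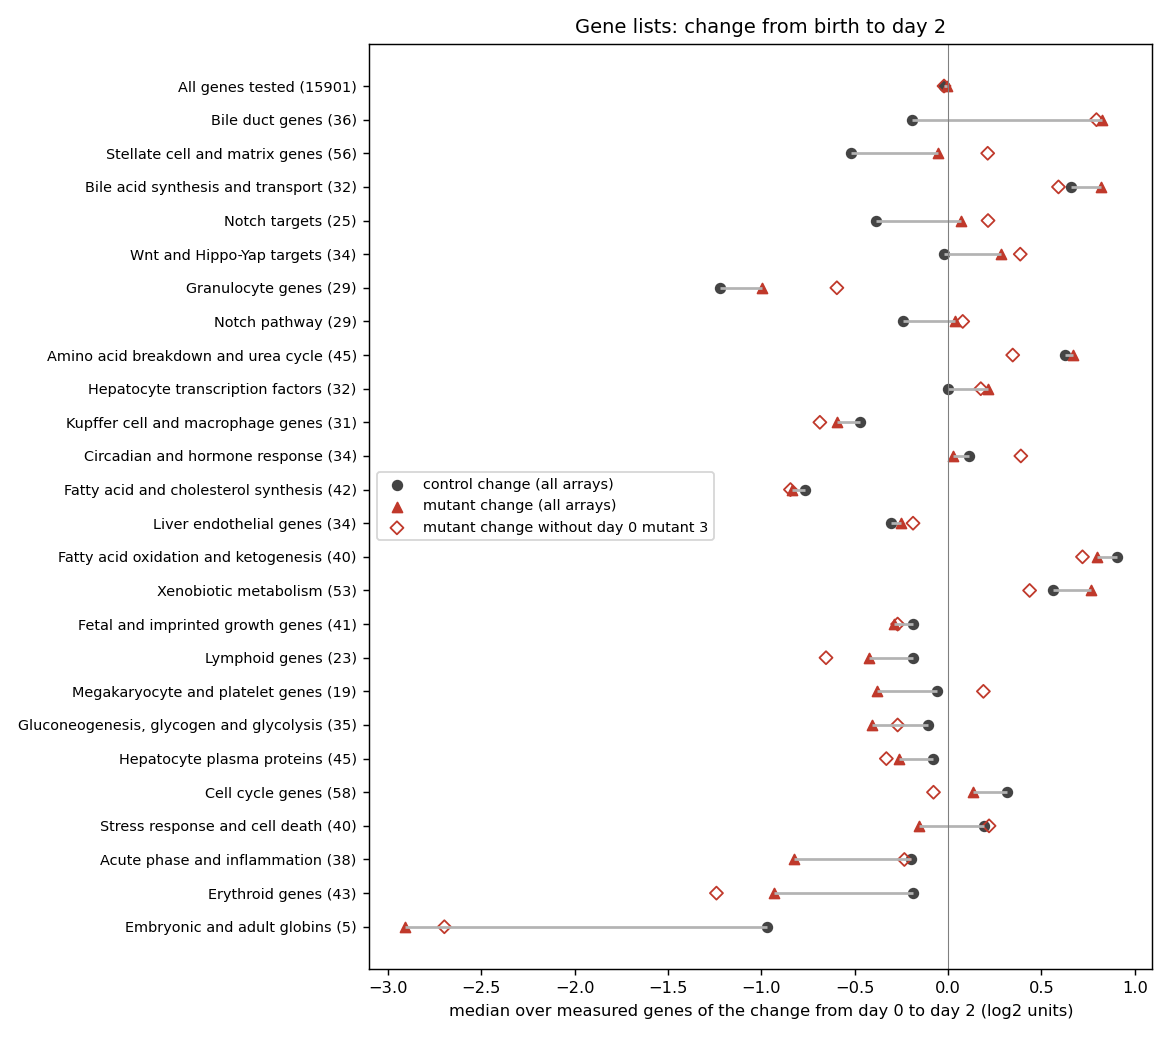
Median change from day 0 to day 2 over the measured genes of each list (number in parentheses), in log2 units, for controls (black circles), mutants (red triangles) and mutants without day 0 replicate 3 (open diamonds). Bile duct genes lie at -0.19 in controls and 0.82 in mutants, erythroid genes at -0.19 and -0.93, and the oxidation and lipid synthesis lists lie close together.

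The number of genes past the threshold depended on which arrays and which variance model were used more than on scaling. With each array left out in turn the count above 0 ran from 1 to 221 and the count below 0 from 0 to 54. It was lowest without control P0 replicate 2 (1 and 1), where a single day 0 control remained, and highest without mutant P0 replicate 3. With pup sex as a covariate 4 and 1 genes passed, while 43 of 43 kept their sign, at 0.784 to 1.15 times the size. With the slide, which is also the replicate number, as a block 15 and 2 genes passed, all 17 among the 43. The filter on all 11 arrays tested 29 of the 43 and the other 23 settings tested all of them. Each gene kept its sign wherever it was tested and passed in 5 to 24 settings. The 43 were chosen on these same arrays, which favours a kept sign, so this is no separate support. A kept sign is also not a kept size. The lowest interaction over the settings was 0.041 for Olfr869, 0.045 for Plekhs1 and 0.45 for Dusp16. Scrn1 passed in all 24, and Tent5b, Gprin3, Tgfb2, Igfbpl1, C2cd4b and Emp2 in at least 20. Igfbpl1 entered the test only through the day 2 mutants, where it was high, and C2cd4b had dim control values. The passes of these genes are therefore no support for their size.

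**Figure D5:**
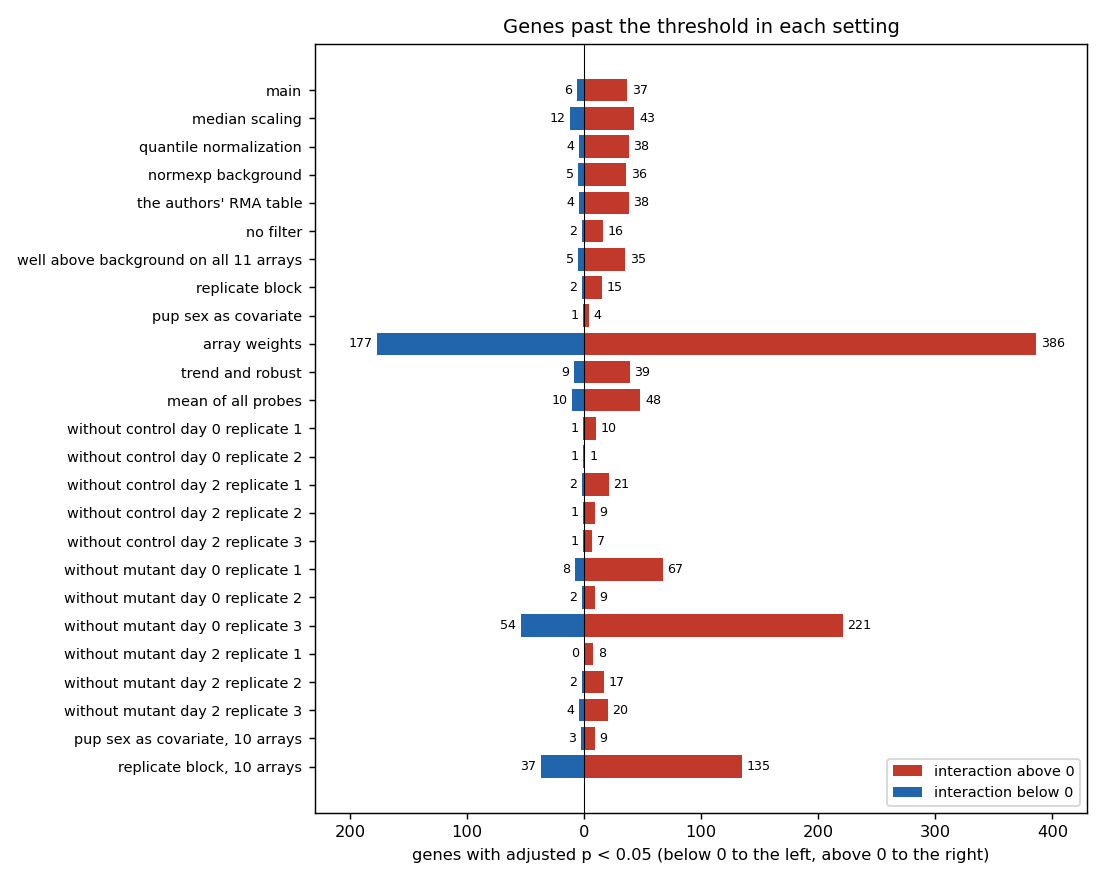
Number of genes with an adjusted p under 0.05 for the interaction in each setting, above 0 to the right and below 0 to the left. The main setting gives 37 and 6, leaving out mutant day 0 replicate 3 gives 221 and 54, and leaving out control day 0 replicate 2 gives 1 and 1.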

How the data were processed

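Per the file headers, each deposited intensity is Feature Extraction's processed signal (version 9.5.3.1), background-subtracted within its array only. The authors' deposited log2 values, made with RMA per the submitters' processing notes, served as an alternative. Genome positions are those of the files (mm8).

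The processed signal was put on a log2 scale relative to its array's 75th percentile. Control spots and outlier flags were left out. Tested probes (27165 of 41174) were those well above background throughout 1 or more groups, and each gene was read from its brightest probe. Igfbpl1, Olfr869 and Wnt10a were thus tested only through the group in which they were high. Symbols came through the RefSeq table by accession for 23483 probes, by symbol for 6678 and by synonym for 2887, from the file alone for 1739, and 6387 had none. The interaction and its simple contrasts were fitted with limma 3.58.1 (R 4.3.3, data.table version 1.17.8), with a coefficient per group and 1 spread shared by all arrays (residual degrees of freedom 7, prior 2.39). Its p-values were adjusted by Benjamini-Hochberg over 15901 genes. The code was tested on simulated data.

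Genes named are, per class and direction, the 6 largest interactions with at least 2 arrays above background in each group, up to 3 per list by p-value, up to 4 dim genes per direction as bounds, and a fixed set of liver and Notch genes. The remaining called genes are named too, except a few of the 43 that are counted but not reported here. Members and lists were chosen with earlier results of these data known. The replicate number is the slide. In their deviations from group means, same-numbered arrays of the 2 day 2 groups correlated at 0.227 to 0.281 and different-numbered ones at -0.05 to -0.21, while same-numbered pairs with a day 0 array ran from -0.03 to 0.13. Not every pair exceeded 0.1, so the main design has no block, and the blocked counts are given beside it.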

Additional observations from a re-analysis of the deposited data

Results flagged for a closer look

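The change from birth to day 2 differed between genotypes, by the interaction test of limma at an adjusted p of 0.05, for 37 genes above 0 and 6 below 0, and those reported are listed here with their interaction in log2 units. Single genes were not searched for outlying arrays within groups of 2 and 3. No explanation was weighed.

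The reversed genes included Adamtsl2 3.10, Ager 2.22, Ppl 2.51, Rgma 4.11, Tgfb2 2.52 and Trim6 3.88. The blocked genes included Camk2b 1.64, Carmil1 2.07, Cpsf4l 3.98, Ddr1 2.19, Dusp16 2.28, Emp2 1.67, Gprin3 3.10, Klc3 2.26, Krt7 2.09, Olfr869 2.78, Syde1 1.51 and Tlr3 1.98, with Crym -2.11 below 0. The genes with a 2-fold change in mutants alone were C2cd4b 5.25, Cdh6 3.20, Ctnna2 3.61, Epb41l4a 2.42, Foxc1 2.80, Igfbpl1 5.36, Inha 1.91, Kcnn2 2.90, Lrrn1 4.51, Nipal2 2.36, Plekhs1 1.44, Rasl10a 2.18, Rtn1 2.48, Scrn1 3.22 and Tent5b 3.12, with Abhd1 -2.93, Fam155a -3.87 and Lkaaear1 -1.73 below 0. The divergent genes were Pamr1 1.67 and Vasn 1.33, and the reduced gene was Mettl7b -3.44, with Wnt10a -4.68 counted beside it although its mutant change lies below background. Values of Igfbpl1, Lrrn1, Ctnna2, Cdh6, Olfr869, Ager, Inha, Plekhs1, Fam155a and Wnt10a rest on a group with no array above background and are no sizes.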

How the results depend on the processing

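With each array left out in turn, 1 to 221 genes passed above 0 and 0 to 54 below 0, against 37 and 6. Where a day 0 control is left out, the lone one is assumed to vary like the other groups. Quantile normalization, normexp background, the RMA table, a trended robust fit and a filter on all 11 arrays kept both counts within 1.5 times. Similar counts did not mean the same genes. Of the 43 genes, 35 passed with quantile normalization, 29 with normexp background, 31 with the RMA table and 36 with the trended robust fit. The RMA table was fitted without the filter on dim probes, over 18567 genes. The numbers above and below 0 were 16 and 2 with no filter on dim probes, 4 and 1 when pup sex was added to the model, and 386 and 177 with array weights. Below 0 there were 12 genes with median scaling and 10 with the mean of all probes. On the 10 arrays without mutant P0 replicate 3, settings added after seeing the data, there were 9 and 3 with pup sex and 135 and 37 with the replicate block. The replicate block on 11 arrays gave 15 and 2, and the number pairs the arrays in the day 2 groups but not throughout. The causes were not tested, other than that leaving out arrays and adding terms lowers the degrees of freedom.

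None of the 43 genes changed sign in a setting that tested it, which was 23 of the 24 settings for all of them and the filter on all 11 arrays for 29. As the 43 were chosen on these same arrays, a kept sign is favoured and is no separate support. Sizes moved more, down to 0.041 for Olfr869, 0.045 for Plekhs1 and 0.45 for Dusp16. Among genes that did not pass, signs turned as follows. With quantile normalization Nrarp gave -0.075, Afp 0.031, Igf2 0.12 and Tat 0.23, and with the RMA table Igf2 gave 0.052 and Tat 0.18. With the replicate block Nrarp gave -0.061 and Tat 0.052. With array weights Nrarp gave -0.31, G6pc -0.19, Ccnd1 -0.19, Tat 0.041 and Hnf4a 0.035. With single arrays left out, the values ran from -0.18 to 0.26 for Nrarp, from -0.35 to 0.22 for Tat, from -0.011 to 1.06 for Notch1, from -0.042 to 1.08 for G6pc and from -0.061 to 0.64 for Ccnd1. On the 10 arrays with pup sex Hes1 gave 0.11 and Cyp7a1 -0.47, and with the replicate block Nrarp gave -0.18, G6pc -0.042 and Ccnd1 -0.061. Signal over background limits the 10 called genes that have a group with no array above it, for which only bounds are given.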
